A study of Mus musculus with 16 samples.

Results

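The glucocorticoid receptor gene Nr3c1 and 5 genes that the receptor is known to induce, Fkbp5, Tsc22d3, Sgk1, Zbtb16 and Dusp1, were followed across 16 mouse kidney RNA libraries. They are 6 of the 52338 genes in the deposited count table, were taken from it by gene symbol, and all 6 passed the filter on low counts that left 17731 genes for testing. The libraries fall into 4 groups of 4, from C57BL6 mice that received FAN or vehicle and ate a high-fat diet, which all groups shared, either time-restricted or ad libitum: FAN time-restricted, FAN ad libitum, vehicle time-restricted and vehicle ad libitum. The labels give the letters FAN without spelling them out, the word folic stands in the column names of all 16 libraries, and kidneys were taken at day 15 after the treatment. The study asked how time-restricted feeding bears on the injured kidney. The ages of the animals, the hours of feeding and the hour of kidney collection are not given in the sources used here. The labels list separate samples but do not say which animal each came from, so the p-values measure the spread between these samples. FAN libraries are named by the number in their column name. In bulk kidney RNA, fewer cells that express a gene and less RNA of that gene per cell cannot be told apart.

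Glucocorticoids are steroid hormones of the adrenal cortex whose level follows a daily rhythm and rises with stress. The receptor waits in the cytoplasm in a complex with HSP90 and its co-chaperones, enters the nucleus when it binds hormone, and raises or lowers the transcription of genes near its binding sites. The element it binds as a dimer holds a pair of inverted arms spaced by 3 bases. Fkbp5 encodes FKBP51, an HSP90 co-chaperone that lowers the receptor's affinity for hormone and so feeds back on it. Tsc22d3 encodes GILZ, a leucine zipper protein with anti-inflammatory action, and Sgk1 encodes a kinase that in the kidney tubule increases sodium transport. Zbtb16 encodes PLZF, a zinc finger repressor of transcription, and Dusp1 encodes a phosphatase that inactivates p38 and JNK kinases and is also an immediate early gene of growth factor and stress signalling.

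RefSeq promoter windows on GRCm38.p6, the 250 bases before an annotated start, were read for 4 of the 6 genes, which had 11 windows, 6 of them of Sgk1 and 3 of Tsc22d3. An arm of the receptor element stood in 3 Sgk1 windows and 1 Tsc22d3 window, and the full element in 1 Sgk1 window. The stretches below are shown because they hold the letters through which the receptor, and for Dusp1 a second pathway, are known to act on such genes. The full receptor element was searched as AGAACA, then any 3 bases, then TGTTCT, which is its own reverse complement, a single arm of it as AGAACA on both strands, and the cyclic AMP response element, the site of the factor CREB, as TGACGTCA, which is also its own reverse complement. A full element contains the single arms, so each full element was also counted as arms. Of the 32851 windows in the RefSeq table, 0.0091% (3 windows) held the full element, 16.0847% a single arm and 1.5464% the cyclic AMP element. Capitals mark the match in the stretches below, which read 5′ to 3′ on the strand of the gene. The first runs from chr10:21993661-21993755 on the plus strand, the second from chrX:140600662-140600747 on the minus strand and the third from chr17:26508568-26508655 on the minus strand.
Sgk1, full receptor element: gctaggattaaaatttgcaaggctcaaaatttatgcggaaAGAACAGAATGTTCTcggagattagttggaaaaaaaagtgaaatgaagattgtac
Tsc22d3, single arm: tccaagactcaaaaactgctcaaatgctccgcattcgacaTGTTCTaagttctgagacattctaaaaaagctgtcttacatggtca
Dusp1, cyclic AMP response element: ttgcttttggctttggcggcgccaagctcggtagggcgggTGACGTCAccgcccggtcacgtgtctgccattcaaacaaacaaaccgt
The Sgk1 match began 189 bases before its RefSeq start, the Tsc22d3 match 185 bases and the Dusp1 match 143 bases. The gene starts given below from GENCODE M21 lie farther upstream for these genes. In the Tsc22d3 window 137 of the 250 bases are exonic in that annotation, outside the stretch printed. The Fkbp5 window held none of these letters, which says nothing of sites farther away, where much of the receptor's binding is known to lie. A match to these letters is a description of the sequence and was not tested as a site in these kidneys.

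Positions are those of the GENCODE M21 annotation on GRCm38. Nr3c1 lies on the minus strand of chromosome 18 from 39410545 to 39519421 and Fkbp5 on the minus strand of chromosome 17 from 28399094 to 28517527. Tsc22d3 lies on the minus strand of chromosome X from 140539528 to 140600659, and Sgk1 on the plus strand of chromosome 10 from 21882184 to 21999903. Zbtb16 lies on the minus strand of chromosome 9 from 48654297 to 48836222. Dusp1 lies on the minus strand of chromosome 17 from 26505590 to 26562128 and shares 11 exonic bases with Ergic1 on the opposite strand, and since the strand setting of the counting is not given, reads from those bases cannot be assigned to either gene.

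Total counts were 12450812 to 28255417 in FAN time-restricted, 19266923 to 33035197 in FAN ad libitum, 14124323 to 31699747 in vehicle time-restricted and 18788303 to 33976660 in vehicle ad libitum libraries. All 7 proximal tubule markers were detected in every library, and their summed level was 8756 to 9598 CPM in FAN time-restricted, 2438 to 4337 CPM in FAN ad libitum, 15269.5 to 17996 CPM in vehicle time-restricted and 13500 to 17154 CPM in vehicle ad libitum libraries. Mitochondrial transcripts took 21.4 to 26.7% of counts in FAN time-restricted, 6.94 to 14.8% in FAN ad libitum, 18.0 to 20.9% in vehicle time-restricted and 17.2 to 22.8% in vehicle ad libitum libraries. The summed level of 6 macrophage markers was 363 to 726, 867 to 946, 92.4 to 134 and 112 to 196 CPM in the same order of groups. Of 5 adrenal cortex markers, searched because the gland that makes the hormone lies on the kidney, 4 were too low to be tested, Star was not called in any comparison, and the sum was at most 5.93 CPM in any library. Levels are CPM, the reads of a gene relative to all reads of its library, scaled by the trimmed mean of M-values (TMM), and each adjusted p comes from edgeR's quasi-likelihood test with Benjamini-Hochberg adjustment over all 17731 genes, a call being a value under 0.05. TMM factors were 1.32 to 1.53 in FAN ad libitum libraries, against 0.816 to 0.975 in the other 3 groups, so log2 changes that involve FAN ad libitum depend on the scaling: with library size alone the median log2 change of all genes was 0.76 for FAN against vehicle under ad libitum feeding, where TMM gave 0.06, and -0.67 between the FAN feeding groups, time-restricted minus ad libitum, where TMM gave -0.02. Column names also carry a number after the letter S, called a sheet position here, whose meaning is not given in the sources used here. The numbers form 3 separate runs, early, middle and late. FAN libraries sat at early and late positions and vehicle libraries at early and middle positions, so that early positions alone hold both.

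Per kilobase of merged exons, Tsc22d3 and Sgk1 had the highest levels in every group and Zbtb16 the lowest. In FAN time-restricted libraries Tsc22d3 averaged 29.0 ± 3.21, Sgk1 26.7 ± 3.28, Dusp1 14.8 ± 4.60, Fkbp5 13.4 ± 0.923, Nr3c1 11.3 ± 1.40 and Zbtb16 2.70 ± 0.677 CPM per kilobase (SD, n = 4). In vehicle ad libitum libraries the same genes averaged 25.3 ± 4.61, 24.3 ± 9.67, 12.7 ± 5.66, 8.31 ± 1.52, 7.87 ± 0.543 and 0.763 ± 0.352 CPM per kilobase (SD, n = 4). In both groups Tsc22d3 and Sgk1 differed by less than either SD, and Dusp1 and Fkbp5 by less than the SD of Dusp1 but more than that of Fkbp5. Fkbp5 and Nr3c1 differed by more than either SD in FAN time-restricted libraries and by less in vehicle ad libitum libraries. In FAN ad libitum libraries Tsc22d3 averaged 16.3 ± 4.17 CPM per kilobase and Sgk1 11.8 ± 5.54, the second within its SD of Fkbp5 at 10.4 ± 3.50 and Nr3c1 at 10.3 ± 1.85 (SD, n = 4 each).

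**Figure D1:**
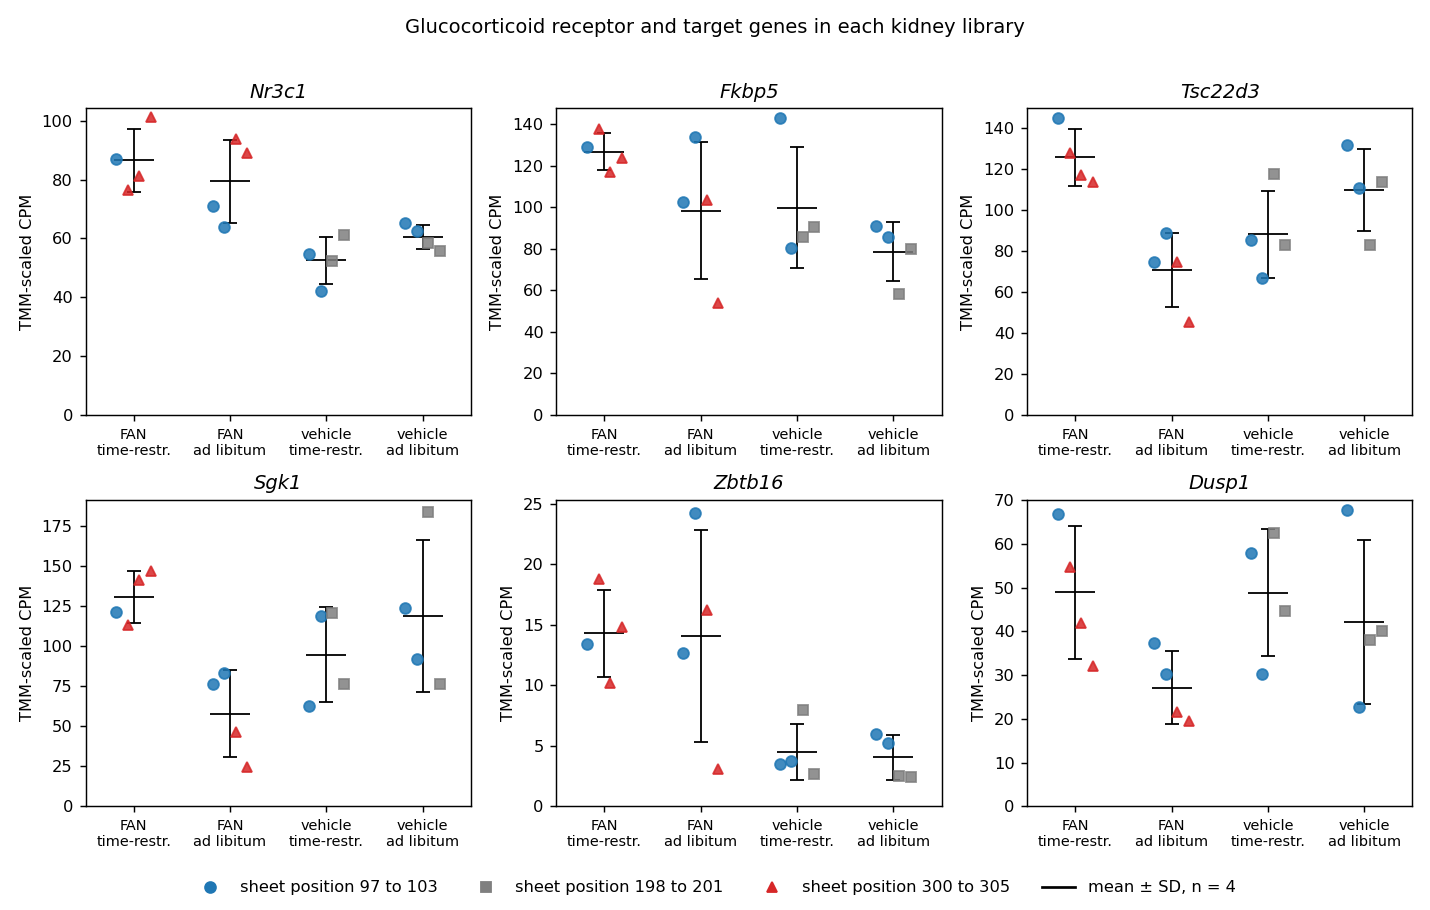
TMM-scaled CPM (vertical axes, from 0) of the 6 genes in each of 16 kidney libraries, by group; points are libraries, coloured and shaped by sheet position, and lines are the mean ± SD of 4. Tsc22d3 and Sgk1 in FAN time-restricted libraries lie above every FAN ad libitum library, and Nr3c1 and Zbtb16 in FAN time-restricted libraries lie above every vehicle time-restricted library.

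The receptor gene itself was called higher in FAN than in vehicle kidneys under both feeding regimens, but the ad libitum call was lost in several settings. Nr3c1 had 87.0, 76.5, 81.2 and 101.3 CPM in FAN time-restricted libraries, against 54.8, 42.0, 52.2 and 61.3 CPM in vehicle time-restricted libraries. It had 71.0, 63.9, 93.7 and 89.0 CPM in FAN ad libitum libraries, against 65.2, 62.5, 58.6 and 55.8 CPM in vehicle ad libitum libraries. Every FAN time-restricted library lay above every vehicle time-restricted library, while under ad libitum feeding FAN library 7 lay within the vehicle range. The change under time-restricted feeding was 0.72 ± 0.14 on the log2 scale (SE; 1.65-fold, adjusted p = 0.000447), and under ad libitum feeding 0.39 ± 0.14 (1.31-fold, adjusted p = 0.0207). The ad libitum call rested on FAN libraries at late sheet positions: among early positions the change was 0.04 (adjusted p = 0.848), against 0.78 (adjusted p = 0.0173) under time-restricted feeding, where early positions hold 1 FAN library. The ad libitum call was also lost without FAN ad libitum 10 (0.30, adjusted p = 0.0761), without FAN ad libitum 12 (0.33, 0.0617), without vehicle ad libitum 3 (0.37, 0.0515) and without vehicle ad libitum 4 (0.35, 0.0637).

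Nr3c1 did not pass the test between feeding regimens. The log2 change for time-restricted against ad libitum feeding was 0.12 in FAN kidneys (95% interval -0.17 to 0.41) and -0.20 in vehicle kidneys (-0.50 to 0.09), and the difference between these changes, 0.33 ± 0.20 (SE), had an adjusted p of 0.326. Without FAN ad libitum 10 and 12 that difference was 0.57 (adjusted p = 0.0323), which passes. With library size alone the change in FAN kidneys turned to -0.52 (adjusted p = 0.0017), smaller in size than the shift of the median gene under that scaling.

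Fkbp5, the co-chaperone that feeds back on the receptor, passed the test in none of the 5 comparisons. It had 129, 138, 117 and 124 CPM in FAN time-restricted libraries and 102.7, 134, 103.3 and 53.9 CPM in FAN ad libitum libraries. Vehicle time-restricted libraries had 143, 80.2, 85.6 and 90.6 CPM, and vehicle ad libitum libraries 91.1, 85.5, 58.2 and 79.9 CPM. FAN time-restricted libraries lay close together, FAN ad libitum 12 was the lowest of its group and vehicle time-restricted 1 the highest of all 16. The log2 change for FAN against vehicle was 0.34 under time-restricted feeding (95% interval -0.13 to 0.82, adjusted p = 0.231) and 0.32 under ad libitum feeding (-0.15 to 0.80, adjusted p = 0.225). Without vehicle time-restricted 1 the change under time-restricted feeding was 0.57 (adjusted p = 0.0497), and without FAN ad libitum 12 the change under ad libitum feeding was 0.53 (adjusted p = 0.0218), both of which pass. Library size alone gave an ad libitum change of 1.03 (adjusted p = 0.000548). Between feeding regimens the change was 0.37 in FAN kidneys (95% interval -0.11 to 0.84, adjusted p = 0.228), which turned to -0.29 with library size alone, and 0.34 in vehicle kidneys (-0.13 to 0.82).

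Tsc22d3, which encodes GILZ, was the only gene of the 6 whose FAN change was called different between the feeding regimens by edgeR's test. The same difference for Sgk1, given below, was larger at 1.51 but missed the threshold, and the 2 genes were not tested against each other. Tsc22d3 had 145, 128, 117 and 114 CPM in FAN time-restricted libraries, against 74.5, 88.6, 74.3 and 45.5 CPM in FAN ad libitum libraries. It had 85.4, 66.6, 117 and 82.9 CPM in vehicle time-restricted libraries, against 131, 110.5, 82.9 and 114 CPM in vehicle ad libitum libraries. The FAN groups did not overlap, and the vehicle groups did. In FAN kidneys Tsc22d3 was 1.78-fold higher with time-restricted feeding (log2 change 0.83 ± 0.19, SE, adjusted p = 0.00343), and in vehicle kidneys its log2 change was -0.32 (95% interval -0.72 to 0.09, adjusted p = 0.879). FAN against vehicle gave 0.51 ± 0.19 under time-restricted feeding (SE, adjusted p = 0.0383) and -0.63 ± 0.19 under ad libitum feeding (SE, adjusted p = 0.00859). The interaction, the FAN change under time-restricted feeding minus that under ad libitum feeding, was 1.15 ± 0.27 on the log2 scale (SE, 95% interval 0.57 to 1.72, adjusted p = 0.0123).

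The difference between the FAN feeding groups was 1.01 (adjusted p = 0.0185) among late libraries. Early libraries include 1 FAN time-restricted library, which is assumed to vary like the others, and gave 0.80 (adjusted p = 0.0239), with an interaction of 1.47 (adjusted p = 0.0175). FAN against vehicle under ad libitum feeding was -0.61 (adjusted p = 0.0186) among early libraries and -0.44 (adjusted p = 0.103) with the position as a covariate. Of the 7 proximal tubule markers 5 were called higher with time-restricted feeding in FAN kidneys, where 17.9% of all genes were. In the interaction 4 of the 7 were called higher, against 7.76% of all genes. The part of these markers in the Tsc22d3 and Sgk1 differences was not tested. Leaving out any 1 of the 16 libraries left the interaction between 0.99 and 1.32 (adjusted p 0.0055 to 0.0283). With library size alone it was 0.55 (adjusted p = 0.121), the FAN feeding change was 0.18 (adjusted p = 0.419), and the FAN change under ad libitum feeding turned to 0.07 (adjusted p = 0.749), each on a scale where the median gene itself moved. The FAN change under time-restricted feeding was lost when 1 of 6 libraries was left out: FAN time-restricted 6 (0.44, adjusted p = 0.11), 10 (0.51, 0.0735) or 11 (0.48, 0.0758), or vehicle time-restricted 1 (0.50, 0.0809), 2 (0.40, 0.126) or 4 (0.48, 0.0823).

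Sgk1, the kinase gene whose window holds the full receptor element printed above, was lowest in FAN ad libitum kidneys. It had 121, 113, 141 and 147 CPM in FAN time-restricted libraries, against 76.4, 83.2, 46.1 and 24.8 CPM in FAN ad libitum libraries. Vehicle time-restricted libraries had 62.5, 119, 120.5 and 76.5 CPM and vehicle ad libitum libraries 124, 92.2, 184 and 76.1 CPM. The FAN feeding groups did not overlap, and the vehicle groups overlapped. In FAN kidneys Sgk1 was 2.27-fold higher with time-restricted feeding (log2 change 1.18 ± 0.34, SE, adjusted p = 0.0146), and under ad libitum feeding its FAN change was -1.04 ± 0.34 (SE, adjusted p = 0.0136). Under time-restricted feeding its FAN change was 0.46 (95% interval -0.25 to 1.18, adjusted p = 0.282). The interaction was 1.51 ± 0.48 (SE, 95% interval 0.50 to 2.52), and missed the threshold (adjusted p = 0.0597), while DESeq2 called it (1.48, adjusted p = 0.0142).

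The Sgk1 difference was larger among late than among early sheet positions, without a test of that contrast. Time-restricted against ad libitum feeding within FAN gave 1.93 (adjusted p = 0.00467) among late libraries and 0.57 (adjusted p = 0.32) among early libraries, where there is 1 time-restricted library. It was 0.71 (adjusted p = 0.105) without FAN ad libitum 10 and 12 and 1.89 (adjusted p = 0.0049) without 6 and 7. FAN against vehicle under ad libitum feeding was -0.48 (adjusted p = 0.251) among early libraries and -0.71 (adjusted p = 0.148) with the position as a covariate, and was lost without vehicle ad libitum 3, the highest library (-0.76, adjusted p = 0.0575), and with library size alone (-0.34, adjusted p = 0.395). The interaction passed without FAN ad libitum 7 (1.74, adjusted p = 0.0459), without vehicle ad libitum 4 (1.68, adjusted p = 0.0433), without FAN ad libitum 6 and 7 (2.22, adjusted p = 0.0123) and with the position as a covariate (1.79, adjusted p = 0.0369), and was 0.83 (adjusted p = 0.325) among early libraries and 1.04 (adjusted p = 0.093) without FAN ad libitum 10 and 12.

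Zbtb16, the gene of the repressor PLZF and the lowest of the set, had the largest FAN change of the 6 genes under each regimen. It had 13.4, 18.8, 10.2 and 14.8 CPM in FAN time-restricted libraries, against 3.51, 3.76, 7.92 and 2.69 CPM in vehicle time-restricted libraries. It had 12.7, 24.2, 16.2 and 3.09 CPM in FAN ad libitum libraries, against 5.98, 5.26, 2.49 and 2.40 CPM in vehicle ad libitum libraries. Under time-restricted feeding the groups did not overlap, and under ad libitum feeding FAN library 12 lay among the vehicle libraries. The change was 3.16-fold under time-restricted feeding (log2 1.66 ± 0.50, SE, adjusted p = 0.0132) and 3.43-fold under ad libitum feeding (1.78 ± 0.49, SE, adjusted p = 0.00536). Among early sheet positions the ad libitum change was 1.67 (adjusted p = 0.00243), and the time-restricted change, which there rests on 1 FAN library, was 1.81 (adjusted p = 0.00809). With the position as a covariate the change was 1.90 (adjusted p = 0.0805) under time-restricted and 1.88 (adjusted p = 0.0178) under ad libitum feeding. Without FAN ad libitum 6 and 7 the ad libitum change was 1.16 (adjusted p = 0.0984). Between feeding regimens the log2 change was 0.02 in FAN kidneys, with an interval of -0.98 to 1.02 that leaves a change of up to about 2.03-fold undetected at this spread, and it turned to -0.64 (adjusted p = 0.242) with library size alone. The SD within FAN was 25.0% of the mean with time-restricted and 62.3% with ad libitum feeding. In vehicle kidneys it was 52.4% and 46.1% in turn, and these spreads were not tested against each other.

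Dusp1, whose window holds the cyclic AMP element, was called in 1 comparison, between the FAN feeding groups. It had 66.9, 54.8, 41.9 and 32.0 CPM in FAN time-restricted libraries, against 37.4, 30.1, 21.5 and 19.4 CPM in FAN ad libitum libraries. Vehicle time-restricted libraries had 58.0, 30.2, 62.4 and 44.6 CPM and vehicle ad libitum libraries 67.7, 22.6, 38.0 and 40.2 CPM. FAN time-restricted 12 lay within the FAN ad libitum range, and vehicle libraries of both regimens ranged from 22.6 to 67.7 CPM. The FAN feeding change was 0.85 ± 0.32 (SE, 1.81-fold, adjusted p = 0.0497), 1.08 (adjusted p = 0.0177) among late and 0.96 (adjusted p = 0.437) among early libraries. That call lay at the threshold and was lost without FAN time-restricted 6 (0.67, adjusted p = 0.153), 10 (0.80, 0.103) or 11 (0.91, 0.0673), without FAN ad libitum 7 (0.91, 0.0882), 10 (0.76, 0.115) or 12 (0.72, 0.126), and with library size alone (0.20, adjusted p = 0.577). FAN against vehicle under ad libitum feeding gave -0.63 (95% interval -1.30 to 0.03, adjusted p = 0.0932), which passed without vehicle ad libitum 2 (-0.85, adjusted p = 0.0235) and turned to 0.08 with library size alone.

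Among the 6 genes, FAN against vehicle under ad libitum feeding called 4 (2 higher, 2 lower), where the same test called 60.7% of all genes tested (32.1% higher, 28.6% lower). For none of the 6 were the groups apart, against 54.9% of all genes (29% with FAN higher, 25.9% with FAN lower). Library size alone called 3, all higher. FAN against vehicle under time-restricted feeding called 3, all higher, against 43.5% of all genes (24.5% higher, 19% lower), and 2 had groups that did not overlap, against 40.3% (22.4% with FAN higher). Time-restricted against ad libitum feeding within FAN called 3, all higher, against 31.8% of all genes (17.9% higher), and 2 had groups that did not overlap, against 28% of all genes. Scaled by library size alone, Nr3c1 was called, lower, and no other member. The interaction called Tsc22d3, higher, against 9.16% of all genes (7.76% higher). The median log2 change of the 6 genes was -0.15, 0.49, 0.60 and 0.48 in these comparisons in turn, against 0.06, 0.05, -0.02 and 0.02 for all genes tested. The comparisons share groups, so their values for a gene are not independent of each other. A set of 6 genes is too small to set these shares apart from the background.

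Time-restricted against ad libitum feeding in vehicle kidneys called none of the 6 genes and 0% of all genes by edgeR's quasi-likelihood test, and none of the 6 had groups that did not overlap, against 4.85% of all genes. At an unadjusted p under 0.05 it had 0 of the 6 genes and 1143 of all genes, and DESeq2 called 57 genes, none of them a member. The 95% intervals on the log2 scale ran from -0.72 to 0.09 for Tsc22d3, from -1.04 to 0.38 for Sgk1, from -0.45 to 0.88 for Dusp1 and from -0.93 to 1.20 for Zbtb16. Of the changes called between the FAN feeding groups, those of Tsc22d3 (0.83) and Sgk1 (1.18) lay outside the vehicle interval and that of Dusp1 (0.85) inside it. This leaves out the error of the FAN changes and is no test of a difference. The edgeR test of the interaction called Tsc22d3 (adjusted p = 0.0123), and neither Sgk1 (adjusted p = 0.0597) nor Dusp1 (adjusted p = 0.407).

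**Figure D2:**
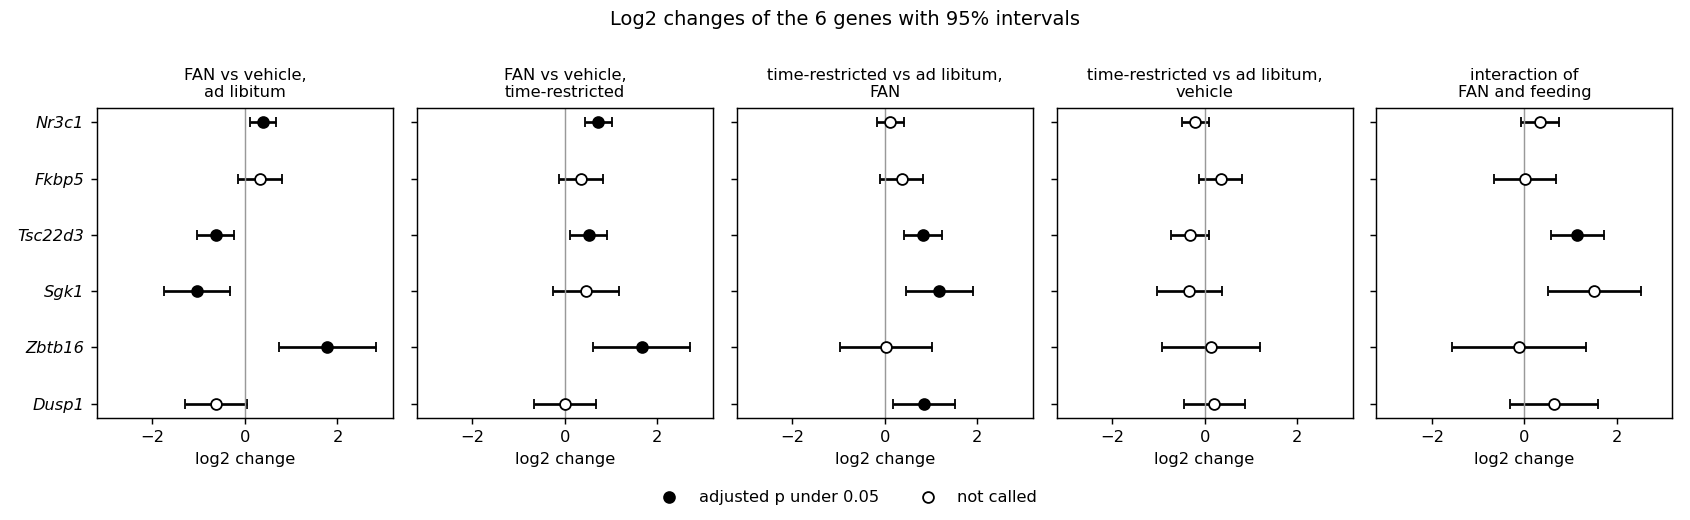
Log2 change (horizontal axes) of each gene in the 5 comparisons, with 95% intervals; filled points have an adjusted p under 0.05. Tsc22d3 lies below 0 for FAN against vehicle under ad libitum feeding and above 0 for the interaction; with library size alone these values are 0.07 and 0.55.

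In 3 of the 4 groups the same library was highest or lowest for at least 4 of the 6 genes. How often a library is so placed over all genes is not given, so this may not be particular to these 6. FAN ad libitum 12 was the lowest of its group for 5 of the 6 genes, all but Nr3c1, and also had the lowest proximal tubule marker sum, 2438 CPM. FAN ad libitum 7 was the highest of its group for 4 genes, Fkbp5, Tsc22d3, Sgk1 and Zbtb16. Its proximal tubule marker sum was 3291 CPM, below the 4337 CPM of FAN ad libitum 6. The sum of 4 collecting duct principal cell markers was 154, 274, 117 and 93.0 CPM in FAN ad libitum 6, 7, 10 and 12. That sum was 139 to 256 CPM in FAN time-restricted, 253 to 444 CPM in vehicle time-restricted and 314 to 473 CPM in vehicle ad libitum libraries. Relative to the vehicle ad libitum mean, the log2 level in FAN ad libitum 12 was -2.18 for Sgk1, -1.25 for Tsc22d3 and -0.26 for Zbtb16. In vehicle ad libitum libraries, number 1 was the highest for 5 genes, all but Sgk1. In vehicle time-restricted libraries, number 2 was the lowest for 4 genes and number 3 the highest for 4. The part of tubule cell content in any of these differences was not tested.

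**Figure D3:**
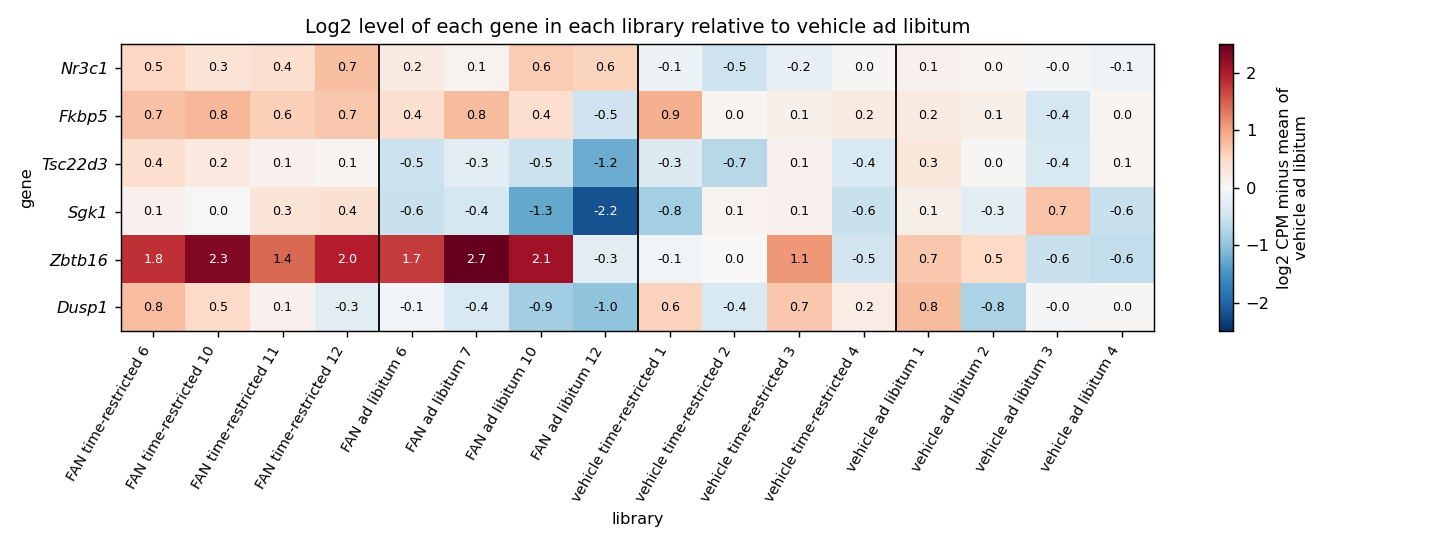
Log2 CPM of each gene (rows) in each library (columns, by group), minus the mean of the 4 vehicle ad libitum libraries; red is higher and blue lower. Zbtb16 is red in all FAN libraries but FAN ad libitum 12, where Sgk1 and Tsc22d3 are at their lowest.

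The pattern of each gene over the 16 libraries was set beside those of 10943 genes with a mean of at least 5 CPM, predicted gene models and RIKEN clones left out, by the mean absolute difference of log2 CPM after each gene was centred on its own mean. The genes most like Nr3c1 were Pkn2, Crk and Bzw1, with differences from 0.09, where the median over all candidates was 0.43. The gene most like Tsc22d3 was Nr3c2, the mineralocorticoid receptor, which binds the same hormones, at 0.20 against a median of 0.44, followed by Atp6v0a4, a proton pump subunit, and Eva1a. Nr3c2 averaged 14.1 CPM in FAN time-restricted, 10.5 in FAN ad libitum, 14.5 in vehicle time-restricted and 14.4 in vehicle ad libitum libraries. Sgk1 was most like Cpox, with Tsc22d3 the second of 10943, at 0.38 against a median of 0.60. Dusp1 was most like Enpep, an aminopeptidase of the proximal tubule brush border, with Klf9, itself a receptor target, second at 0.27 against a median of 0.54. Fkbp5 was most like Heca, Frmd4b and Sgms2, and Zbtb16 most like Thsd7a, Rhob and Clec9a, a dendritic cell receptor. Among the 6 genes the closest pair was Nr3c1 and Fkbp5, at 0.31, and the farthest Zbtb16 and Dusp1, at 1.04. A gene with no change across the libraries would lie 0.286 from Nr3c1, 0.339 from Fkbp5, 0.360 from Tsc22d3 and 0.464 from Dusp1. It would lie 0.538 from Sgk1 and 0.997 from Zbtb16. Such a gene would lie nearer to Tsc22d3 than Sgk1 does, at 0.379. These pair distances thus depend on how much each gene varied, and whether the genes of a pair moved together was not tested. The libraries share the 4 groups and the scaling, so likeness over them reflects group differences that many genes share.

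Other genes of the pathway were taken from 8 lists, of which 99 genes were tested. FAN against vehicle called 67 of them under ad libitum feeding (44 higher, 23 lower), which is 67.7% beside 60.7% of all genes, and 45 under time-restricted feeding (37 higher, 8 lower), which is 45.5% beside 43.5%. Time-restricted against ad libitum feeding called 30 in FAN (17 higher, 13 lower), 30.3% beside 31.8%, and 0 in vehicle kidneys, with 11 at an unadjusted p under 0.05 and 3 by DESeq2. The median log2 change over the 99 genes was 0.28, 0.21, 0.02 and -0.05 in turn, against 0.06, 0.05, -0.02 and -0.01 for all genes. On library size alone the ad libitum split was 73 higher and 6 lower and the FAN feeding split 5 higher and 63 lower. The median of all genes under that scaling was 0.76 and -0.67 in these 2 comparisons, and -0.57 in the interaction. List splits with library size alone, here and below, carry this shift, and the shares of all genes by direction under it are not given.

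Of 7 genes that handle the receptor and its ligand, 2 were called higher and 2 lower in FAN kidneys under ad libitum feeding (4 and 1 with library size alone), 1 higher and 1 lower under time-restricted feeding, and 0 between the FAN feeding groups. With TMM these shares were 57.1%, 28.6% and 0%, beside 60.7%, 43.5% and 31.8% of all genes. Hsd11b1, the enzyme that regenerates active glucocorticoid from its inert form inside cells, averaged 123 ± 52.5 CPM in FAN time-restricted libraries, against 327 ± 137 CPM in vehicle time-restricted libraries (SD, n = 4 each). It averaged 68.0 ± 27.7 CPM in FAN ad libitum libraries, against 243 ± 66.3 CPM in vehicle ad libitum libraries (SD, n = 4 each). Its log2 change was -1.42 (adjusted p = 0.00321) under time-restricted and -1.84 (adjusted p = 0.000224) under ad libitum feeding. Nr3c2 was called lower under ad libitum feeding (-0.46, adjusted p = 0.0326), a sign that turned to 0.24 with library size alone. Serpina6, which encodes the corticosteroid-binding globulin of plasma, was called higher under both regimens (adjusted p = 0.00719 time-restricted, 0.00059 ad libitum) at very low levels. It had 0.196 to 0.929 CPM in FAN time-restricted libraries, against 0 to 0.142 CPM in vehicle time-restricted libraries, and 0.284 to 0.817 CPM in FAN ad libitum libraries, against 0 to 0.0959 CPM in vehicle ad libitum libraries, near the level that a count of 0 allows. H6pd, whose product supplies the cofactor of the Hsd11b1 enzyme, was called higher by 0.56 (adjusted p = 0.0117) under ad libitum feeding. Hsd11b2, the enzyme that inactivates glucocorticoid in the distal nephron, did not pass, at -0.21 (adjusted p = 0.461) under time-restricted feeding and -0.13 (adjusted p = 0.619) under ad libitum feeding, the second turning to 0.58 (adjusted p = 0.026) with library size alone. The proximal tubule marker sum was lower in FAN than in vehicle kidneys beside this result. Under each regimen 5 of 7 markers were called lower, where 28.6% of all genes were under ad libitum and 19% under time-restricted feeding. The part of this sum in the Hsd11b1 change was not tested.

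Of 10 chaperone genes whose products fold and hold the receptor, 6 were called lower and 0 higher in FAN kidneys under ad libitum feeding, where 28.6% of all genes were called lower, a direction that library size alone turned to 0 lower and 4 higher. Fkbp4, which encodes FKBP52, the co-chaperone that competes with the Fkbp5 product for HSP90 and raises hormone binding, averaged 162 ± 11.5 CPM in FAN ad libitum libraries, against 300 ± 51.6 CPM in vehicle ad libitum libraries (SD, n = 4 each; log2 change -0.89 ± 0.13, SE, adjusted p = 1.05e-05). Hspa8, the constitutive heat shock protein of the HSP70 family, changed by -1.02 (adjusted p = 0.000135) and Dnajb1, an HSP40 co-chaperone, by -0.72 (adjusted p = 0.00184), with proximal tubule marker sums lower in the same libraries, as given above, and their part not tested. The HSP90 gene Hsp90aa1 was at 0.08 (adjusted p = 0.776) there and did not pass. Under time-restricted feeding 1 of 10 was called, where 43.5% of all genes were: Hsp90aa1, higher by 0.81 (adjusted p = 0.00907). The interaction was called for 2 of 10, where 9.16% of all genes were: Hspa8 (1.01 ± 0.26, SE, adjusted p = 0.021) and Fkbp4 (0.65 ± 0.18, SE, adjusted p = 0.0293). Scaled by library size alone, the interaction was called for neither Hspa8 (0.42, adjusted p = 0.159) nor Fkbp4 (0.06, adjusted p = 0.819).

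Among 29 other genes that glucocorticoids induce in some tissue, FAN against vehicle called 14 higher and 7 lower under ad libitum feeding (19 and 3 with library size alone), and 14 higher and 2 lower under time-restricted feeding. With TMM these shares were 72.4% and 55.2%, beside 60.7% and 43.5% of all genes. Klf15, a transcription factor gene induced by the receptor in many tissues, averaged 31.5 ± 2.85 CPM in FAN time-restricted and 13.3 ± 4.59 CPM in FAN ad libitum libraries, against 63.2 ± 13.1 CPM in vehicle time-restricted and 79.3 ± 11.8 CPM in vehicle ad libitum libraries (SD, n = 4 each). It fell under both regimens, by 1.01 (adjusted p = 0.00126) on the log2 scale under time-restricted feeding and by 2.58 (adjusted p = 3.41e-08) under ad libitum feeding, and its interaction of 1.57 ± 0.31 (SE, adjusted p = 0.00331) was called, also with library size alone (0.97, adjusted p = 0.019). Klf9, another such factor, averaged 193 ± 45.5 CPM in FAN time-restricted, against 87.7 ± 20.5 CPM in FAN ad libitum libraries (SD, n = 4 each; log2 change 1.14, adjusted p = 0.00123; 0.49, adjusted p = 0.0604, with library size alone). Cebpd, an acute phase transcription factor gene, rose by 2.73 (adjusted p = 7.04e-06) under time-restricted and 2.57 (adjusted p = 4.29e-06) under ad libitum feeding. Lcn2, an iron-carrier binding protein known as a marker of kidney injury, rose by 4.89 (adjusted p = 1.35e-07) under ad libitum feeding, and Anxa1, which encodes an anti-inflammatory lipid-binding protein, by 2.73 (adjusted p = 3.12e-07). Nfkbia, an inhibitor of NF-kB signalling, rose by 0.84 (adjusted p = 0.000383) under time-restricted and 0.55 (adjusted p = 0.00573) under ad libitum feeding. Per1, a clock gene with a receptor element, did not pass, at -0.26 (adjusted p = 0.587) under ad libitum feeding.

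Between the FAN feeding groups 10 of these 29 genes were called higher and 3 lower with time-restricted feeding, where 17.9% and 13.9% of all genes were. Pdk4, a kinase that holds back glucose oxidation, was higher by 2.12 (adjusted p = 0.000559), and Klf15 by 1.25 (adjusted p = 0.000414). Cd163, a scavenger receptor of macrophages, was lower by a log2 change of -2.05 (adjusted p = 0.00141) and Lcn2 by -1.58 (adjusted p = 0.00537). Over the same libraries 6 of 6 macrophage markers were called lower and 5 of 7 proximal tubule markers higher with time-restricted feeding, and their part in these changes was not tested. Library size alone called 4 of the 29 genes higher and 11 lower, where the median of all genes was -0.67.

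Inflammatory genes that the ligand-bound receptor is known to repress were higher in FAN kidneys. All 14 tested were called higher under ad libitum feeding, where 32.1% of all genes were, and 11 of 14 under time-restricted feeding, where 24.5% of all genes were. Library size alone gave the same counts. Vcam1, an adhesion molecule for leukocytes, averaged 229 ± 76.3 CPM in FAN time-restricted libraries, against 6.53 ± 1.02 CPM in vehicle time-restricted libraries, and 278 ± 33.3 CPM in FAN ad libitum libraries, against 8.36 ± 3.25 CPM in vehicle ad libitum libraries (SD, n = 4 each). The chemokine genes Cxcl2 and Ccl2 rose by 5.23 (adjusted p = 8.7e-07) and 6.09 (adjusted p = 8.34e-07) on the log2 scale under time-restricted feeding. Between the FAN feeding groups 3 of 14 were called lower with time-restricted feeding, where 13.9% of all genes were. These were the cytokine Il6 (-2.85, adjusted p = 0.00169), the adhesion molecule Icam1 (-0.92, adjusted p = 0.00258) and Nos2, the inducible nitric oxide synthase (-1.58, adjusted p = 0.0309). The interaction was called for 0 of the 14, against 9.16% of all genes. With library size alone it was called for 3, where the median of all genes was -0.57. Macrophage markers were called higher for FAN under ad libitum feeding in 6 of 6 and under time-restricted feeding in 5 of 6, T cell markers in 6 of 6 under each and B cell markers in 0 of 4. Between the FAN feeding groups 6 of 6 macrophage markers were called lower and 0 of 6 T cell markers in either direction, with a median log2 change of 0.31, and the part of these cells was not tested.

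The genes near Sgk1 in function were called in both directions. Sgk2, a kinase of the same family, averaged 77.1 ± 12.97 CPM in FAN time-restricted and 26.3 ± 6.46 CPM in FAN ad libitum libraries, against 221 ± 11.1 CPM in vehicle time-restricted and 200.1 ± 5.83 CPM in vehicle ad libitum libraries (SD, n = 4 each). It fell by 1.52 (adjusted p = 3.65e-07) on the log2 scale under time-restricted feeding and by 2.93 (adjusted p = 1.53e-10) under ad libitum feeding, with an interaction of 1.40 (adjusted p = 0.000332), which was 0.80 (adjusted p = 0.00665) with library size alone. Sgk3 rose by 0.69 (adjusted p = 0.0045) and 0.80 (adjusted p = 0.000758), and Ndrg1, which encodes a known SGK1 substrate, by 1.50 (adjusted p = 0.000544) and 0.82 (adjusted p = 0.0206), under time-restricted and ad libitum feeding in turn. Scnn1a, a subunit of the epithelial sodium channel that glucocorticoids and aldosterone induce, was lower with time-restricted than with ad libitum feeding in FAN kidneys (-0.99, adjusted p = 0.0201), where Sgk1 was higher. Slc9a3, the sodium-hydrogen exchanger of the proximal tubule, was higher there by 0.72 (adjusted p = 0.0168), which was 0.06 with library size alone. In all, 2 of 13 genes were called higher and 5 lower for FAN under ad libitum feeding, which is 53.8% beside 60.7% of all genes. With library size alone 8 were called higher and 2 lower, where the median of all genes was 0.76.

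Of 11 genes for DUSP1 substrates and related phosphatases, 6 were called higher and 2 lower for FAN under ad libitum feeding. Under time-restricted feeding 5 were called higher and 2 lower. With library size alone these splits were 10 and 0, and 6 and 2, where the median of all genes was 0.76 and 0.16. The shares called with TMM were 72.7% and 63.6%, beside 60.7% and 43.5% of all genes. The related phosphatase genes Dusp5 and Dusp10 rose by 2.13 (adjusted p = 7.6e-06) and 1.78 (adjusted p = 0.000158) under ad libitum feeding, where Dusp1 itself was at -0.63 and did not pass. Mapk14, which encodes the p38 alpha kinase, fell by 0.80 (adjusted p = 1.89e-05) there and by 0.58 (adjusted p = 0.000997) under time-restricted feeding, the ad libitum change being -0.10 with library size alone. Both tested relatives of Tsc22d3 rose: Tsc22d1 by 1.31 (adjusted p = 1.66e-06) and 1.13 (adjusted p = 2.77e-06), and Tsc22d2 by 0.78 (adjusted p = 0.000835) and 0.54 (adjusted p = 0.00748), under time-restricted and ad libitum feeding in turn. Between the FAN feeding groups neither passed, at 0.18 (adjusted p = 0.357) and 0.17 (adjusted p = 0.446), values that turned to -0.46 (adjusted p = 0.0115 and 0.0101) with library size alone.

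Of 13 receptor coregulators, 1 was called higher and 5 lower with time-restricted feeding in FAN kidneys, where 13.9% of all genes were called lower. The methyltransferase gene Carm1 was lower by a log2 change of -0.94 (adjusted p = 0.0115) and Smarca4, which encodes a chromatin remodelling ATPase, by -0.63 (adjusted p = 0.0183). Hexim1, whose product restrains transcription elongation and binds the receptor, was the gene called higher, by 0.47 (adjusted p = 0.0104). With library size alone its change turned to -0.18 and 12 of 13 were called lower, where the median of all genes was -0.67. For FAN against vehicle, Nrip1, a corepressor gene, rose by 0.86 (adjusted p = 3.16e-05) under time-restricted and 0.99 (adjusted p = 1.93e-06) under ad libitum feeding.

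**Figure D4:**
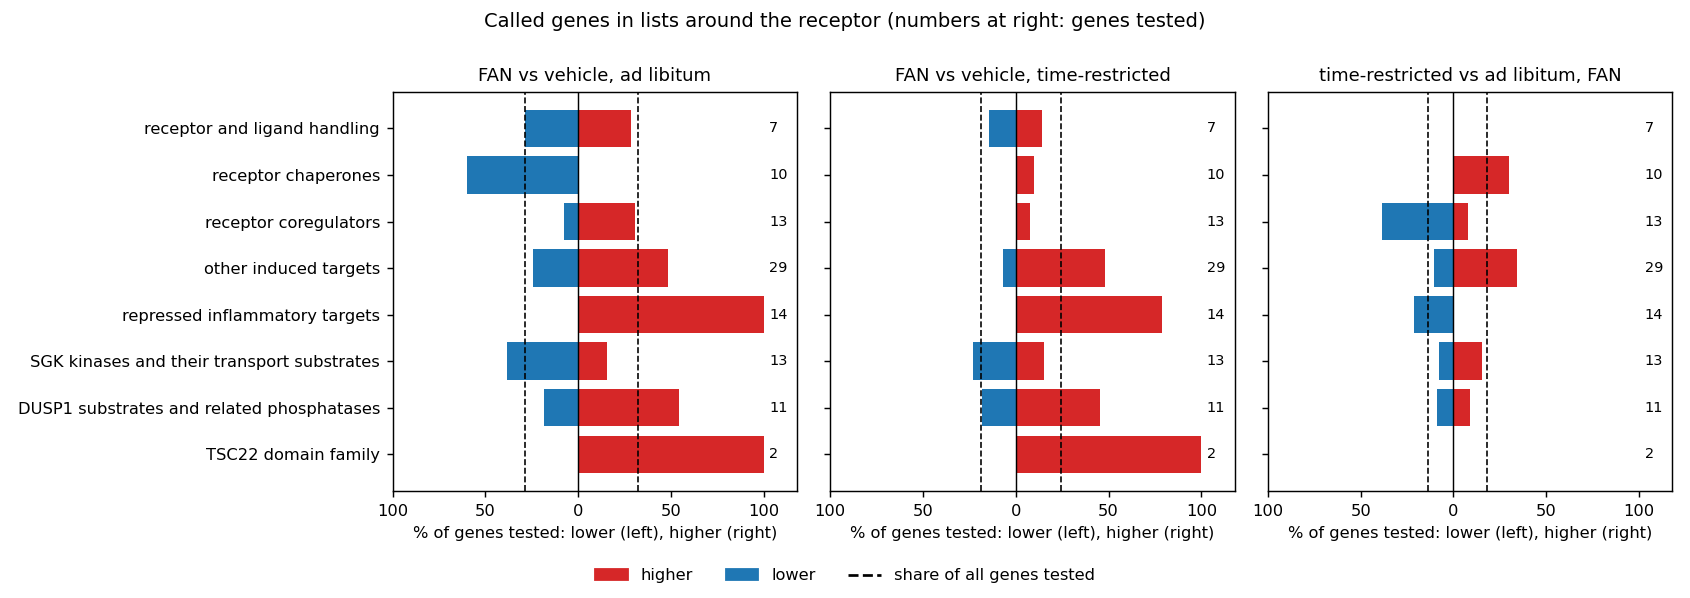
Share of tested genes on each of 8 lists called higher (right, red) or lower (left, blue), in percent, in 3 comparisons; dashed lines are the shares of all 17731 genes and numbers at right are genes tested. Repressed inflammatory targets were called higher in 14 of 14 and 11 of 14 for FAN, and receptor chaperones lower in 6 of 10 under ad libitum feeding, where library size alone gave 4 higher and 0 lower. Under that scaling the median log2 change of all genes there was 0.76.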

How the data were processed

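The authors deposited unnormalized read counts for 52338 Ensembl genes in 16 kidney libraries, which is the unit used here. The labels' protocols give TRIzol extraction of frozen kidney powder and TruSeq stranded mRNA libraries. Listed without roles in the submitters' processing notes are the mm10 build, STAR 2.5.3a, FastQC 0.11.5 and edgeR 3.26.7. How reads were counted, and on which strand, is not given in the sources used here. Gene coordinates in the table are not GRCm38 positions (2.806% of starts equal GENCODE M21), so coordinates come from M21, matched by identifier for 52029 genes.

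The numbers in FAN column names differ from those in the sample titles, so a FAN column stands for its group and no particular title. In R 4.3.3, edgeR 4.0.16 kept genes with filterByExpr (minimum count 10), scaled libraries by TMM and fitted all 16 in 1 model of 4 groups with robust quasi-likelihood, and the script was tested on simulated data. Library totals of 12450812 to 33976660 put the level that a count of 0 allows (3 counts) at 0.0883 to 0.241 CPM, for counting error only. Replicates were distinct libraries (chi-square per gene of at least 18.43). FAN ad libitum libraries formed pairs by sheet position: 20.73 between 6 and 7 (early) and 26.66 between 10 and 12 (late). Across these pairs it was 146.4 to 154.7, the largest values within any group. Mitochondrial transcripts took 7.29 and 6.94% of counts in 6 and 7, against 14.8 and 12.1% in 10 and 12. Log2 CPM for likeness used a prior count of 2.

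The 6 genes and all lists were chosen with earlier results of these data known. Pathway genes named in the text come from those with the 3 smallest p per list, comparison and direction among those called, not all of which are named, and from a set allowed in any case: Nr3c2, Hsd11b1, Hsd11b2, Per1, Klf9, Klf15, Cebpd, Fkbp4, Nfkbia and Scnn1a. For each of the 6 genes the 3 most alike were named. Alternatives were library size alone, DESeq2 size factors, leaving out mitochondrial transcripts, no filter, DESeq2 1.42.0, only the groups compared, a replicate block, sheet positions and leaving out each library.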

Additional observations from a re-analysis of the deposited data

Results flagged for a closer look

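The FAN change of Tsc22d3 under time-restricted feeding exceeded that under ad libitum feeding by 1.15 on the log2 scale (edgeR's quasi-likelihood test of the interaction, adjusted p = 0.0123), and it was picked out because the response differed between the feeding groups by the test of that difference. All 4 FAN time-restricted libraries lay above all 4 FAN ad libitum libraries. The proximal tubule marker sum was 8756 to 9598 CPM in FAN time-restricted, 2438 to 4337 CPM in FAN ad libitum, 15269.5 to 17996 CPM in vehicle time-restricted and 13500 to 17154 CPM in vehicle ad libitum libraries, and its part in the difference was not tested. Vehicle time-restricted 1 had 143 CPM of Fkbp5, against 80.2 to 90.6 CPM in the other libraries of its group, a gap of 0.835 of the group's range on the CPM scale, above Dixon's 95% critical value for 4 samples, and of 0.79 on the log2 scale, below it. It was the only one of 24 sets of 4 libraries past that value on either scale, and chance puts about 1 in 20 there.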

How the results depend on the processing

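Of the log2 changes of the 6 genes over these other settings, 456 kept direction and side of the threshold, 38 lost a call, 8 gained one and 44 changed sign. Changes of sign outside library size alone concerned values that had not passed the test. With library size alone the log2 change for FAN under ad libitum feeding was 0.072 for Tsc22d3 and 0.081 for Dusp1, that for feeding in FAN was -0.52 for Nr3c1, -0.29 for Fkbp5 and -0.64 for Zbtb16, and the interaction was -0.57 for Fkbp5 and -0.26 for Nr3c1. It called 1 of the 6 genes and 68 pathway genes between the FAN feeding groups, and 0 and 35 in the interaction. The normalization factors, 1.32 to 1.53 in FAN ad libitum libraries, are what this setting leaves out.

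DESeq2 gave -0.045 for Dusp1 (FAN, time-restricted feeding) and -0.015 for the Fkbp5 interaction, and its size factors in edgeR gave -0.042 and -0.015. DESeq2 also called 2 of the 6 genes in the interaction and 3 pathway genes between vehicle groups. The same Dusp1 change was -0.026 without mitochondrial transcripts and -0.025 with only the groups compared. Without a filter the Fkbp5 interaction was -0.0027, 1 of the 6 genes was called between the FAN feeding groups, and 4 and 1 pathway genes were called in the interaction and between vehicle groups. Nr3c1 for FAN under ad libitum feeding was 0.35 (adjusted p = 0.0545) with only the groups compared. The causes were not tested.

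Among early sheet positions the calls were 2 of the 6 genes for FAN under ad libitum feeding, 1 between the FAN feeding groups, and 14 pathway genes in the interaction. The log2 changes there were -0.24 (Fkbp5) and 0.14 (Zbtb16) for the interaction, -0.49 for Zbtb16 between FAN feeding groups, and -0.63 (Zbtb16) and -0.041 (Dusp1) between vehicle feeding groups. Late positions gave -0.075 for Nr3c1 and 16 pathway genes between FAN feeding groups, and middle positions 0.020 for Tsc22d3 and 1 pathway gene between vehicle groups. Position class as a covariate gave 0.022 for the Zbtb16 interaction, and called 1 of the 6 genes for FAN under ad libitum feeding and 2 in the interaction. Leaving out both FAN ad libitum 10 and 12, chosen after seeing the data, gave -0.24 for the Fkbp5 interaction, -0.37 for Zbtb16 between FAN feeding groups, 2, 2 and 1 of the 6 genes called (FAN under ad libitum feeding, interaction, FAN feeding) and 21 pathway genes in the interaction. Leaving out 6 and 7, likewise chosen, gave -0.060 for Fkbp5 (FAN, ad libitum), -0.083 for Nr3c1 (FAN feeding), 0.45 for the Zbtb16 interaction, 2 of the 6 genes in the interaction and 19 pathway genes between FAN feeding groups.

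Leaving out 1 library at a time gave -0.18 to 0.16 for Dusp1 (FAN, time-restricted), -0.18 to 0.25 and -0.45 to 0.31 for the interactions of Fkbp5 and Zbtb16, and -0.31 to 0.42 and -0.29 to 0.39 for Zbtb16 between the FAN and vehicle feeding groups. It called 2 to 5 of the 6 genes for FAN under ad libitum feeding (2 without vehicle ad libitum 3) and 1 to 2 in the interaction (2 without FAN ad libitum 7 or vehicle ad libitum 4). Pathway genes called ran from 18, without FAN ad libitum 7, to 35 between FAN feeding groups, and from 2, without vehicle ad libitum 4, to 10 in the interaction.

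Over all genes, FAN under time-restricted feeding called 7719, against 4974 with the position covariate. Between FAN feeding groups 5639 were called, against 11502 with library size alone, 2129 among late positions and 3127 without FAN ad libitum 6 and 7. The interaction called 1625, against 6631 with library size alone and 4282 without FAN ad libitum 10 and 12. Deviations of same-numbered samples from their group means had correlations of -0.146 to 0.179 in vehicle and -0.25 to -0.0533 in FAN groups. Same-numbered samples also shared an early, middle or late sheet position. With so few libraries per group, these correlations cannot settle whether the samples were paired. A replicate block called 0 genes between vehicle groups and, between FAN groups over the 3 shared numbers, 3 of the 6 genes, 16 pathway genes and 2325 of all genes.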

Other observations

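Immediate early genes, which respond within minutes to growth factors and stress and to which Dusp1 also belongs, were higher in FAN kidneys. All 14 tested were called higher for FAN under time-restricted feeding and 13 of 14 under ad libitum feeding (14 of 14 with library size alone). Of all genes, 24.5% and 32.1% were called higher in these comparisons with TMM. Their summed level was 291 to 515 CPM in FAN time-restricted libraries, against 72.1 to 94.7 CPM in vehicle time-restricted libraries, and 471 to 632 CPM in FAN ad libitum libraries, against 91.6 to 102.5 CPM in vehicle ad libitum libraries, with no overlap in either pair. Klf6, a zinc finger factor gene, rose by 3.13 (adjusted p = 5.57e-10) under time-restricted and 3.05 (adjusted p = 9.88e-11) under ad libitum feeding on the log2 scale. Dusp1 was at 0.01 and -0.63 in the same comparisons and passed in neither.

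Of 14 circadian clock genes, some of which glucocorticoids regulate, 4 were called higher and 8 lower for FAN under time-restricted feeding and 5 higher and 8 lower under ad libitum feeding (4 and 6, and 5 and 4, with library size alone). With TMM these shares were 85.7% and 92.9%, beside 43.5% and 60.7% of all genes. Npas2, an activator of the clock, rose by 1.69 (adjusted p = 8.05e-05) and 2.34 (adjusted p = 6.45e-07), and Tef, an output factor, fell by 1.43 (adjusted p = 2.47e-07) and 1.89 (adjusted p = 2.6e-09), under time-restricted and ad libitum feeding in turn. Hlf, a factor related to Tef, had an interaction of 1.44 (adjusted p = 0.00512), 0.83 (adjusted p = 0.0371) with library size alone.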
